A study of Mus musculus with 3 samples.

Results

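Hematopoietic stem cells (HSCs) stay in the bone marrow through surface receptors that sense niche chemokines and grip matrix and neighbouring cells. Transcripts of 10 such niche homing and adhesion receptor genes, Cxcr4, Itga4, Itga5, Itga6, Itgb1, Cd44, Selplg, Cdh2, Jam3 and Cd47, were measured in long-term HSCs (LT-HSCs). The members were the 10 genes of this set among 37325 genes on the array, and every probe annotated to 1 of their symbols was used, which gave 26 probes. LT-HSCs were sorted from C57BL/6J bone marrow as lineage-, Sca-1+, c-Kit+ cells that were CD150+, CD48-, Flt3- and CD34- (the methods add CD41-), and RNA of each genotype was hybridized to 1 Agilent array. The 3 groups were WT, AtmsKO and Atmp38dKO. AtmsKO mice carried CAG-CreERT2 with floxed Atm, the kinase that signals DNA breaks. Atmp38dKO mice carried CAG-CreERT2 with floxed Atm and floxed Mapk14, which encodes p38α MAP kinase. Tamoxifen (TAM) was given at about 5 weeks of age with analysis 4 weeks later per the series text, while the sample labels give an age of 11 weeks. Per the methods, controls also received TAM but carried no Cre, so Cre itself differed along with the deletion. The CAG promoter drives CreERT2 in nearly all cells, so the deletions were not limited to HSCs and the niche itself could lose the genes. Each group held 1 array, so there are no replicates and no p-value, and each comparison compares those arrays, not the conditions. In a sorted population, fewer cells that express a gene and less RNA per cell cannot be told apart.

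Cxcr4 is the receptor of Cxcl12, the chemokine that retains HSCs in the marrow. Integrins are pairs of an α and a β chain. Itgb1 pairs with Itga4 into VLA-4, which binds Vcam1 and fibronectin, with Itga5 into VLA-5, which binds fibronectin, and with Itga6 into a laminin receptor. Cd44 binds hyaluronan, and Selplg encodes PSGL-1, the ligand that lets blood cells roll on selectins. Cdh2 encodes N-cadherin, a calcium-dependent receptor that binds its like on the next cell. Jam3 encodes a junctional adhesion molecule that binds Jam2, and Cd47 is the signal that restrains macrophages through Sirpa. Cd44 and the integrin tails are also known to be spliced into several forms, so a probe reads only the forms that hold its 60 bases.

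The member probes on which the account of single transcripts turns are printed here, 5′ to 3′ on the strand of the gene, with mm9 positions. The first pair lies at the end of Itgb1, where the cytoplasmic tail is spliced. Capitals mark the 23 bases that both probes share, read from the exon downstream of the intron. The first covers chr8:131250081-131255976 on the plus strand and belongs to the widely expressed splice form. The second covers chr8:131250931-131255949, its start lies 850 bases inside the genomic span of the first, and its letters before the capitals hold the end of the tail known from striated muscle.
Itgb1 base 2631: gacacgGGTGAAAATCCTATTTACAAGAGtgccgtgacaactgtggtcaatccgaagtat
Itgb1 base 230: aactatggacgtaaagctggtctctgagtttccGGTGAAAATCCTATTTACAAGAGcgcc
The next is a Cd44 probe at chr2:102677971-102678030 on the minus strand, in the variable region that the standard form of Cd44 lacks. It listed 3 RefSeq mRNAs out of 6 of the gene, had an open reading frame in all 3 frames, and differed most among the probes on a RefSeq mRNA.
Cd44 base 1777: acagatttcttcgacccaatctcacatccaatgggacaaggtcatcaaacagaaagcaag
The last are 4 Itga4 probes on the plus strand of chromosome 2. The probe at base 2292 spans an intron at chr2:79153985-79155115 and listed the RefSeq mRNA. The other 3 were at least 2-fold apart in some comparison and listed only other transcripts, although the array files list few accessions per probe, so that an unlisted RefSeq mRNA may still hold the bases. They lie at chr2:79097898-79097957, chr2:79132945-79133004 and chr2:79133311-79133370.
Itga4 base 2292: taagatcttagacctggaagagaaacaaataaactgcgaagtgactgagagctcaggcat
Itga4 base 2202: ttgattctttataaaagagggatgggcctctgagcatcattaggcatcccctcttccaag
Itga4 base 2746: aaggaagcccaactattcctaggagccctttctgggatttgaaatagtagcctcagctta
Itga4 base 1706: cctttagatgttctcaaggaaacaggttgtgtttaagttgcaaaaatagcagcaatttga
The probes at base 2202 and base 2746 had a stop codon in every frame, and the probe at base 1706 had 1 open frame.

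The targeted genes were examined first. Atm signals, in arbitrary processed intensity units, were 88.8 on the WT, 16.3 on the AtmsKO and 49.0 on the Atmp38dKO array at one probe, and 87.0, 23.9 and 86.5 at the other. Relative to WT and after scaling, Atm read lower on the AtmsKO array, with log2 differences of -2.37 and -1.79 at these probes. With normexp background correction, which adds an offset of 50 intensity units and so narrows differences at dim probes, the second of these was -0.81. On the Atmp38dKO array the log2 differences were -1.07 and -0.22. Mapk14 differed from WT by 0.18 and 0.01 on that array. The files do not say whether these probes lie in the deleted exons, and the Atmp38dKO array is therefore called by its label only. Each array held 62976 spots, between 68.9% and 77.7% of the probes were well above background, and the median SD between spots of the 300 probes printed 10 times was 0.05 log2 units on each array. All 13 markers of the sort and of LT-HSCs were well above background on all 3 arrays. These include Cd34, Cd48, Flt3 and Itga2b (CD41), whose proteins the gate excludes, so detection of all 13 is no test of the sort. Cd34 gave 1694 on the WT, 1666 on the AtmsKO and 2186 on the Atmp38dKO array at its brightest probe. On the Atmp38dKO array, log2 differences from WT were 0.77 for Cd48, 0.15 for Cd34, 0.13 for Flt3 and -0.23 for Itga2b. Between arrays, 2 of the 13 differed at least 2-fold. Hoxb5, a transcription factor gene of LT-HSCs, fell by 1.64 on the log2 scale on the Atmp38dKO array against WT, and Fgd5, another gene used to mark HSCs, fell by 1.72.

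Transcripts of all 10 members were detected on all 3 arrays, and none of the 10 differed 2-fold between any arrays. This was read at each gene's brightest probe, the one with the highest 3-array mean, which was well above background on every array for all 10. Values below are log2 differences after each array was scaled to its 75th percentile. AtmsKO minus WT ran from -0.25 (Jam3) to 0.27 (Cd47), with a median of 0.10. Atmp38dKO minus WT ran from -0.18 (Cd44) to 0.07 (Itga6), with a median of -0.10. Atmp38dKO minus AtmsKO ran from -0.44 (Cd47) to 0.18 (Itga6), with a median of -0.17. The largest of these differences in either direction was 1.21-fold for AtmsKO against WT, 1.13-fold for Atmp38dKO against WT and 1.36-fold for Atmp38dKO against AtmsKO. Medians over all genes considered were 0.01, 0.02 and 0.00. The comparisons share arrays, so these differences are not independent.

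A gene was considered if it was well above background on 1 or both of the arrays compared. Among these, 3.86% of 29044 were at least 2-fold higher and 4.04% at least 2-fold lower on the AtmsKO than on the WT array. For Atmp38dKO against WT 3.98% of 30671 were higher and 4.46% lower, and for Atmp38dKO against AtmsKO 3.72% of 30219 were higher and 3.64% lower. With shares of this size, 0 of 10 is near the background. The spread of differences also narrows with signal. Among the 2685 genes with a mean signal of 1000 or more, which include Cxcr4, Itga6 and Itgb1, the central 95% of AtmsKO minus WT differences lay between -0.33 and 0.40. Among the 13823 genes below a signal of 50, which include Itga5 and Jam3, it lay between -1.60 and 1.60. Each of the 10 members lay inside the central 95% of genes of like signal in all 3 comparisons. The SD of a difference that spots alone would give was 0.08, and 8, 6 and 10 of the 10 members differed by more than this in AtmsKO against WT, Atmp38dKO against WT and Atmp38dKO against AtmsKO. The error that the scanner software gives was 0.20 to 0.24 on these differences and is set mainly by its preset term of 10% of the signal. The spot spread comes from 1 hybridization per array and holds nothing of the spread between mice.

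**Figure D1:**
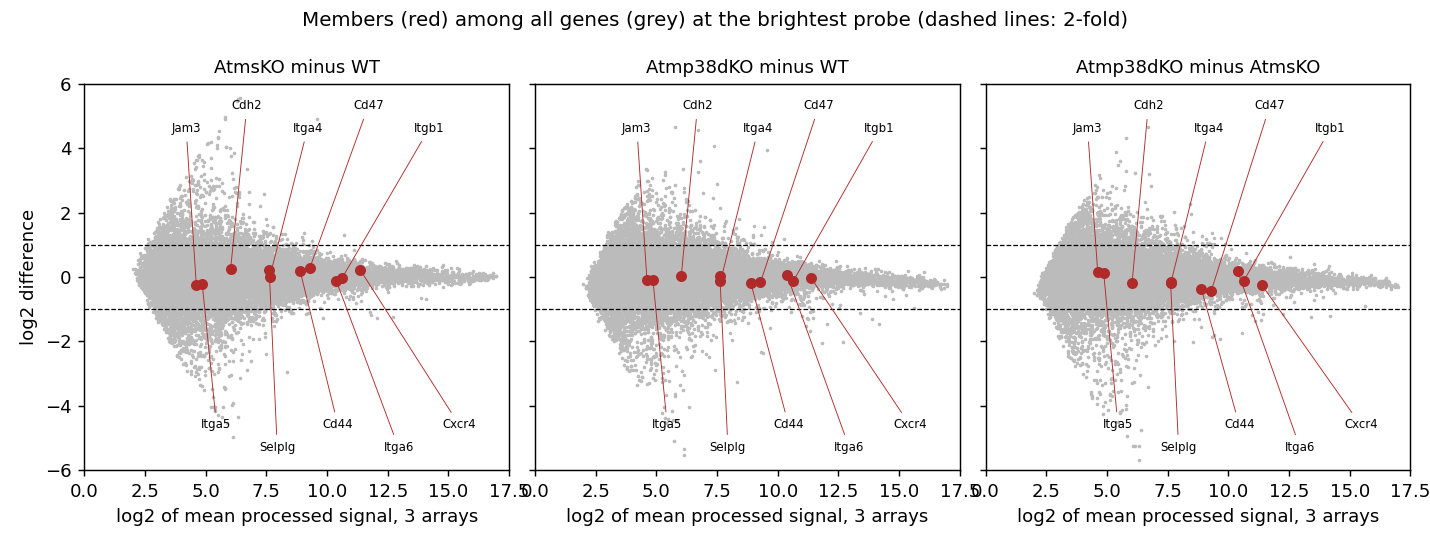
log2 difference between arrays (vertical axis) against log2 of the mean processed signal over the 3 arrays (horizontal axis) at the brightest probe of each gene, with members in red and all other genes considered in grey. All 10 members lie between the dashed 2-fold lines in each comparison, at signals where grey points spread more widely on the left than on the right. Axes end at 6 log2 units, which leaves out 1, 3 and 2 genes in the panels from left to right.

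Cxcr4, the chemokine receptor, was measured by 2 probes. The brightest, at base 1451 of its mRNA, gave 2450 on the WT, 2699 on the AtmsKO and 2795 on the Atmp38dKO array. The second, at base 416, gave 648, 603 and 848. After scaling, AtmsKO minus WT was 0.22 at the first probe and -0.03 at the second, and Atmp38dKO minus AtmsKO was -0.24 at the first and 0.20 at the second. The 2 probes therefore gave no common direction for Cxcr4 in either comparison, and differences against WT on the Atmp38dKO array were -0.02 and 0.17.

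Itgb1, the β chain shared by VLA-4, VLA-5 and the laminin receptor, was measured by 3 probes. The brightest, at base 3715, gave 1594.5 on the WT, 1492 on the AtmsKO and 1680 on the Atmp38dKO array, with log2 differences of -0.02 and -0.14 against WT. The printed probe of the widely expressed tail (base 2631) gave 321, 387 and 476, and its differences against WT were 0.35 on both mutant arrays. The printed probe of the muscle tail (base 230) gave 48.7, 45.2 and 69.4, with differences of -0.03 and 0.30. Both tail probes were thus higher on the Atmp38dKO than on the WT array by a similar amount, while the brightest probe, downstream of them, was slightly lower. The part that binding through the shared 23 bases has in these signals was not tested.

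Itga4, the α chain of VLA-4, had the widest range of differences among its probes in both comparisons with the Atmp38dKO array. At the brightest, base 9754 of the RefSeq mRNA, the signals were 199.6 on the WT, 189.8 on the AtmsKO and 210.4 on the Atmp38dKO array, with log2 differences of 0.00 and -0.14 against WT. The printed probe across an intron (base 2292) gave 54.2, 49.6 and 49.5, with differences of -0.05 and -0.35. These are the 2 Itga4 probes that listed the RefSeq mRNA, and neither neared 2-fold.

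The other 4 Itga4 probes, which listed no RefSeq mRNA, moved in both directions. At base 2202 the signal was 31.9 on the WT, 48.7 on the AtmsKO and 113 on the Atmp38dKO array. The Atmp38dKO array stood highest there, 3.06-fold above WT, a log2 difference of 1.61, against 0.69 for AtmsKO minus WT. At base 2746 the order was turned, with 16.6, 13.0 and 7.33, and Atmp38dKO minus WT was -1.39. At base 1706 the signals were 9.43, 7.69 and 3.89, the last not well above background, so this probe read at least 2.2-fold lower than on the WT array. At base 759 they were 6.88, 11.4 and 8.11, with differences of 0.80 and 0.02. Along the gene, the base 2202 probe was the most 5′, the base 759 probe lay 15.5 kb downstream of it, and the pair that was lower on the Atmp38dKO array lay at 35.0 and 35.4 kb. The RefSeq mRNA probes lay at 56.1 and 75.3 kb.

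Itga5, the α chain of VLA-5, had a single probe, which gave 30.3 on the WT, 24.4 on the AtmsKO and 32.6 on the Atmp38dKO array. Its differences against WT were -0.23 and -0.11. Itga6, the laminin-binding α chain, had 5 probes. The brightest, at base 4289, gave 1294 on the WT, 1132 on the AtmsKO and 1574 on the Atmp38dKO array, with differences of -0.12 and 0.07. The probe at base 5684 of the same mRNAs gave 1084, 886 and 1376, with differences of -0.21 and 0.13. The AtmsKO array was lowest and the Atmp38dKO array highest at both before scaling. The 3 remaining Itga6 probes lie upstream of these and read lower on both mutant arrays than on the WT array. The probe across an intron at base 2921 gave 52.2, 34.5 and 38.5, with differences of -0.52 and -0.65. A probe at base 383 of a transcript with no RefSeq mRNA listed gave 943, 753 and 708, with differences of -0.25 and -0.63. Another at base 3213 gave 33.8, 18.0 and 32.1, with differences of -0.83 and -0.29. AtmsKO minus WT was thus negative at all 5 probes of Itga6, at most 1.78-fold, and Atmp38dKO minus WT changed sign along the gene.

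Cd44, the hyaluronan receptor, was measured by 3 probes. The brightest, at base 2614 near the end of the coding part, gave 457 on the WT, 498 on the AtmsKO and 468 on the Atmp38dKO array, with log2 differences of 0.20 and -0.18 against WT. The probe at base 4134 gave 213, 211 and 286, with differences of 0.06 and 0.21. The printed probe in the variable region (base 1777) gave 7.66, 24.1 and 14.3. The AtmsKO array read 3.32-fold above WT at this probe, a log2 difference of 1.73, and the Atmp38dKO array 1.61-fold above, a difference of 0.69. Atmp38dKO minus AtmsKO was -1.05. The WT signal lay close to 5.33, the lowest signal of any probe well above background on that array, so this fold rests on few intensity units. Its software error on the log2 difference was 0.31, against 0.20 at the brightest Cd44 probe.

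**Figure D2:**
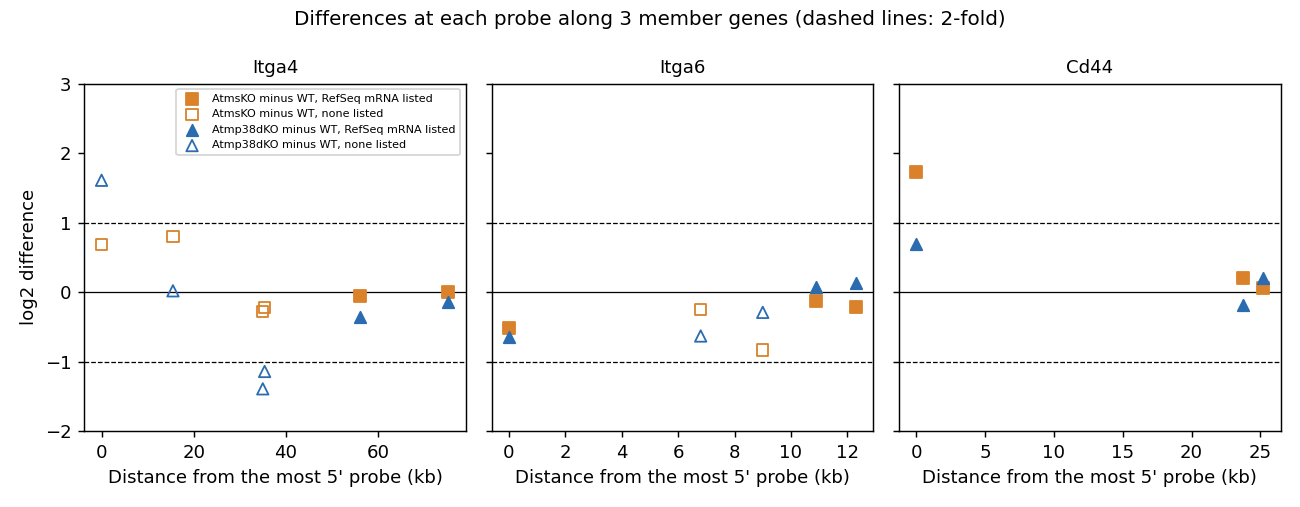
log2 difference of each mutant array from the WT array (vertical axis) against distance in kb from the most 5′ probe of the gene (horizontal axis) for Itga4, Itga6 and Cd44. Filled symbols list a RefSeq mRNA and open symbols list none. The most 5′ Itga4 probe reaches 1.61 and the most 5′ Cd44 probe 1.73, while the probes at the 3′ end of all 3 genes stay within 0.25 of 0.

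Selplg, the selectin ligand gene, had a single probe, which gave 179.8 on the WT, 198.2 on the AtmsKO and 212 on the Atmp38dKO array, and differences of 0.22 and 0.02 against WT. Cdh2 gave 59.1, 66.3 and 70.7 at the probe of its mRNA, with differences of 0.24 and 0.04. Its second probe, which listed no RefSeq mRNA, was not well above background on any array and gives no fold. Jam3 gave 25.6, 20.3 and 27.7 at its only probe, with differences of -0.25 and -0.10. Selplg and Cdh2 were thus slightly higher and Jam3 slightly lower on the AtmsKO array, all by less than 1.2-fold, and each lay closer to WT on the Atmp38dKO array. These AtmsKO differences were about as large as the software error of 0.20 to 0.24. With normexp background correction the order held for Selplg and Cdh2 but turned for Jam3, with -0.04 and -0.14 against WT. The Jam3 signals lie below the offset of 50 that this correction adds, which narrows such differences.

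Cd47 had the largest difference between the mutant arrays among brightest probes. At base 1083, across an intron, it gave 591 on the WT, 676 on the AtmsKO and 610 on the Atmp38dKO array. AtmsKO minus WT was 0.27, Atmp38dKO minus WT was -0.17, and Atmp38dKO minus AtmsKO was -0.44. At base 2459, on a transcript for which no RefSeq mRNA was listed, the signals were 169, 148 and 190.2, and the last of these differences was 0.07. The lower Cd47 reading on the Atmp38dKO than on the AtmsKO array was therefore seen at 1 of its 2 probes.

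**Figure D3:**
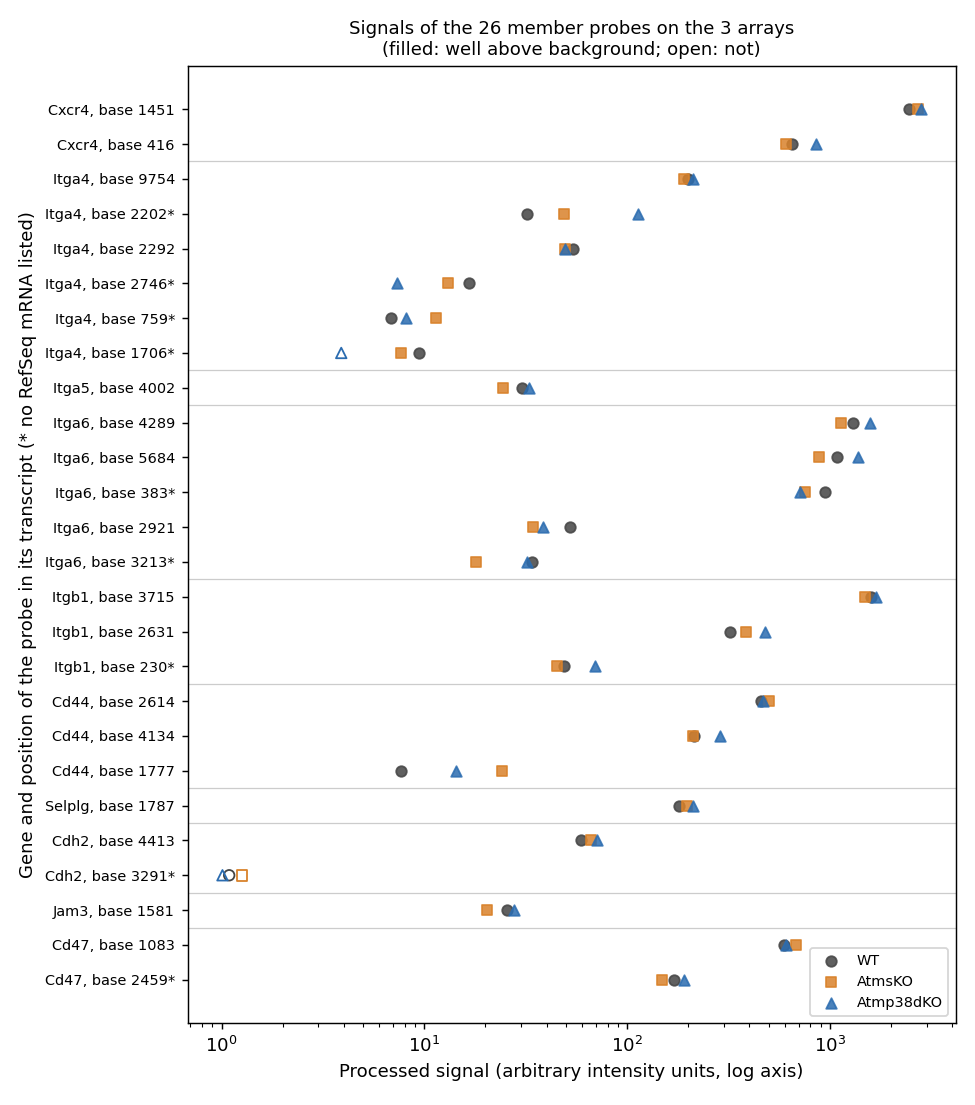
Processed signal in arbitrary intensity units (log axis) of each of the 26 member probes (rows, with the position in the probe's transcript) on the WT, AtmsKO and Atmp38dKO arrays, 1 point per array. Points of most rows lie close together, while Itga4 at base 2202 and Cd44 at base 1777 spread from 31.9 to 113 and from 7.66 to 24.1. Signals of different probes are not comparable as levels.

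Taken probe by probe, 24 of the 26 member probes were well above background on all 3 arrays, 1 on 2 arrays and 1 on none. None was saturated or flagged as an outlier. Of the 25 considered, 1 was at least 2-fold higher on the AtmsKO than on the WT array, the Cd44 variable-region probe, and 0 were lower, against 4.29% and 4.74% of all probes. For Atmp38dKO against WT 1 was higher and 2 were lower, all of Itga4, against 4.69% and 5.07% of all probes. For Atmp38dKO against AtmsKO 0 were higher and 2 were lower, 1 of Itga4 and 1 of Cd44, against 4.39% and 4.07%. These counts are near the background. Most of the probes past 2-fold were dim, and below a mean signal of 50 the share of all probes past 2-fold was 14.2%, 14.7% and 12.9% in the 3 comparisons, beside 1, 2 and 2 of 8 member probes. The Itga4 probe at base 2202 had a mean signal above 50, where 6.15% of all probes were past 2-fold in Atmp38dKO against WT. Its mean passed 50 only through the Atmp38dKO array, since it gave 31.9 on the WT and 48.7 on the AtmsKO array. The 6.15% is therefore no fair background for this probe.

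**Figure D4:**
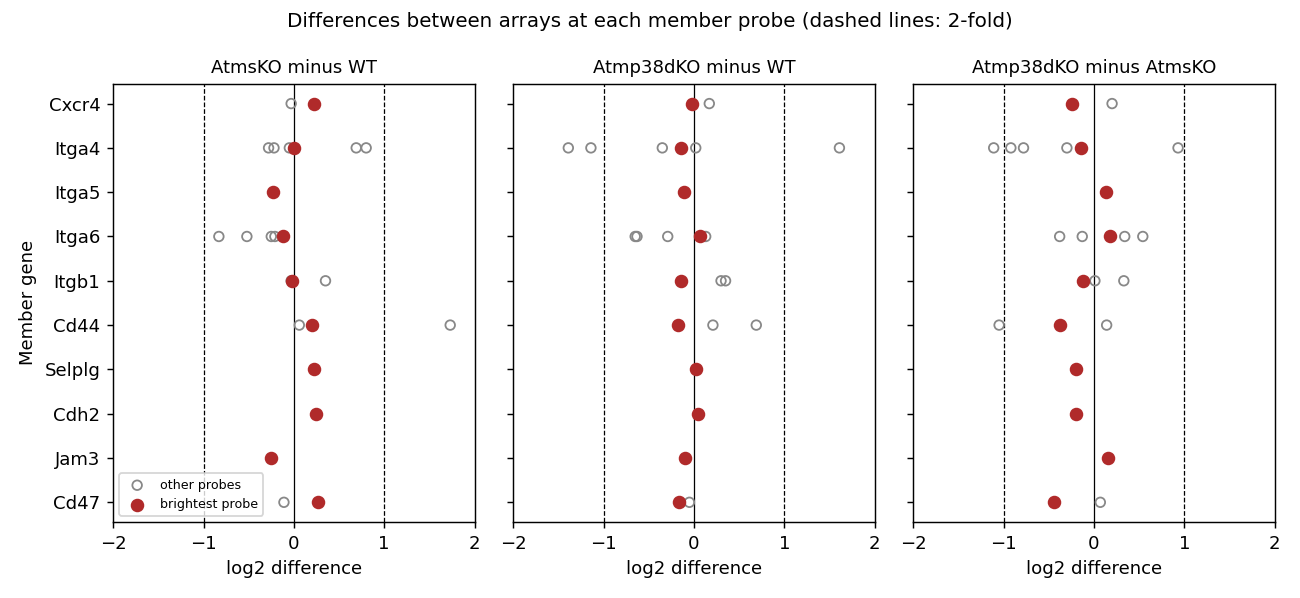
log2 difference between arrays (horizontal axis) at every member probe considered, by gene (rows), with the brightest probe filled in red and other probes open. All red points lie between the dashed 2-fold lines. Open points past them belong to Itga4 and Cd44.

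Probes of the same gene share the RNA and are no replicates, but they show how far a difference depends on where it is read. Among the other member probes that both arrays detected, 9 of 15 had the sign of the brightest probe in AtmsKO against WT, 4 of 14 in Atmp38dKO against WT and 6 of 14 in Atmp38dKO against AtmsKO. Over all genes with several probes the share was 53%, 53.6% and 54.4%. Small differences of the members thus carried a sign that other probes of the gene often did not repeat, most so in Atmp38dKO against WT.

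Genes around the members were examined as 7 lists, which include the members themselves. Without the members they held 177 genes. Of these, 155 were considered for AtmsKO against WT, and 7.74% were at least 2-fold higher and 4.52% lower, beside 3.86% and 4.04% of all genes. For Atmp38dKO against WT the shares were 3.64% and 3.03% of 165, beside 3.98% and 4.46% of all genes. For Atmp38dKO against AtmsKO they were 3.01% and 5.42% of 166, beside 3.72% and 3.64%. List medians below are log2 differences in the order AtmsKO against WT, Atmp38dKO against WT and Atmp38dKO against AtmsKO, beside medians over all genes of 0.01, 0.02 and 0.00. Apart from Sele and Has3, the genes named from the lists were well above background on both arrays compared. Some folds past 2-fold still rest on few intensity units. Those of S1pr3, Itga9, Fermt2, Fut4, Casr and Parvb rest on a WT or AtmsKO signal of 10.5 or less. Those of Podxl and Vcam1 rest on Atmp38dKO signals of 7.16 and 10.1. The lowest signals well above background were 5.33 on the WT, 6.12 on the AtmsKO and 4.97 on the Atmp38dKO array.

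Of 24 homing receptor genes, 3 of 21 considered were higher and 0 lower on the AtmsKO than on the WT array, 2 of 22 higher and 1 lower on the Atmp38dKO array, and 1 of 23 higher and 2 lower on the Atmp38dKO than on the AtmsKO array. List medians were 0.18, -0.02 and -0.29. S1pr3, a receptor of sphingosine-1-phosphate, gave 10.5 on the WT, 81.0 on the AtmsKO and 51.2 on the Atmp38dKO array. Both mutant arrays stood above WT, by 8.16-fold and 4.21-fold. S1pr1, the sphingosine-1-phosphate receptor that guides egress into blood, gave 115, 92.4 and 48.2, and fell 2.77-fold on the Atmp38dKO array against WT and 2.35-fold against AtmsKO. Each of these receptors was read by a single probe. Casr, the calcium-sensing receptor that helps HSCs lodge at bone, gave 8.17 on the AtmsKO and 29.6 on the Atmp38dKO array, a 2.96-fold rise between them, with no signal well above background in WT.

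Of 26 integrin subunit genes, 1 of 20 considered was higher and 0 lower on the AtmsKO array, and 2 of 24 higher and 0 lower on the Atmp38dKO array against WT. Against AtmsKO, 1 of 24 was higher and 0 lower. Medians were 0.06, 0.27 and 0.05. Itga9, which pairs with Itgb1 and also binds Vcam1 and tenascin, gave 8.57 on the WT, 7.31 on the AtmsKO and 31.7 on the Atmp38dKO array, 3.18-fold above WT. Itgb2, the β chain of the leukocyte integrins, gave 305, 511 and 721, and was 2.03-fold above WT on the Atmp38dKO array. In Atmp38dKO against WT, Itga9 and Itgb2 thus differed by more than any of the 4 integrin members at their brightest probes.

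Integrin activation and adhesion signaling held 42 genes. On the AtmsKO array 4 of 41 considered were higher and 2 lower than on the WT array, while on the Atmp38dKO array 0 were past 2-fold against WT and 2 were lower than on the AtmsKO array. Medians were 0.05, -0.06 and -0.06. Fermt2, a kindlin that activates integrins by binding the β tail, gave 7.84 on the WT, 47.4 on the AtmsKO and 11.4 on the Atmp38dKO array, 6.38-fold above WT on the AtmsKO array. Src, a kinase recruited at integrin adhesions, gave 27.2, 159.5 and 32.4, and was 6.19-fold above WT on the AtmsKO array, with its second probe 0.88 log2 units higher. Both genes were highest on the AtmsKO array and close to WT on the Atmp38dKO array. Parvb, a linker from integrins to actin, fell by 1.21 on the log2 scale on the AtmsKO array, but its other detected probe read 0.14. Bcar1, the adhesion scaffold p130Cas, fell by 1.07, with -0.84 at its other probe.

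Of 31 cadherin, junction and immunoglobulin receptor genes, 3 of 26 considered were higher and 0 lower on the AtmsKO array, and 1 of 27 higher and 2 lower on the Atmp38dKO array against WT. Against AtmsKO, 0 of 27 were higher and 3 lower. Medians were -0.10, -0.18 and 0.03. Jup, which encodes plakoglobin of the cadherin complex, gave 51.7 on the WT, 119 on the AtmsKO and 62.1 on the Atmp38dKO array, but another probe read in the opposite direction, with -0.75 for AtmsKO minus WT. Nectin2, a junctional receptor, gave 19.7, 43.7 and 20.1. Its AtmsKO minus WT difference was 1.23 at this probe and 0.54 at its other probe. Afdn, the afadin gene that anchors nectins to actin, gave 58.5, 57.7 and 25.0. Its Atmp38dKO array differed from WT by -1.44 at this probe but by -0.46 at its other probe. Against AtmsKO the Afdn values were -1.50 and -0.32. Jam2, the partner of Jam3, gave 31.9, 25.3 and 16.4, and fell by 1.18 on the Atmp38dKO array against WT, with -0.96 at its other probe.

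Of 28 genes for Cd44, selectin ligands, their sugars and their linkers, 1 of 26 considered was higher and 2 lower on the AtmsKO array, and 1 of 28 higher and 0 lower on the Atmp38dKO array against WT. Against AtmsKO, 2 of 28 were higher and 1 lower. Medians were 0.02, 0.01 and 0.10. Fut4, a fucosyltransferase that completes selectin-binding sugars, gave 55.6 on the WT, 7.39 on the AtmsKO and 43.9 on the Atmp38dKO array, 7.13-fold below WT on the AtmsKO array. Tpst1, a tyrosine sulfotransferase, the activity that PSGL-1 needs to bind P-selectin, gave 66.2, 24.7 and 71.2. Each of these 2 enzyme genes was lowest on the AtmsKO array at a single probe, while the median of the list in AtmsKO against WT was 0.02. Selplg itself stayed within 1.2-fold, and whether the modification of PSGL-1 differed was not tested. Podxl, a sialomucin related to Cd34, gave 18.3 on the AtmsKO and 7.16 on the Atmp38dKO array, with no signal well above background in WT.

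Of 19 Cd47 partners and tetraspanins, 0 of 18 considered were higher and 1 lower on either mutant array than on the WT array, and 0 differed 2-fold between the mutant arrays. Medians were -0.02, -0.05 and -0.01. The gene that fell on both was Thbs1, which encodes the Cd47 ligand thrombospondin-1, with 77.6 on the WT, 27.1 on the AtmsKO and 37.2 on the Atmp38dKO array. The differences from WT were -1.44 and -1.27, with -0.85 at a second probe for AtmsKO minus WT.

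Of 18 niche ligand genes, 0 of 14 considered were higher and 2 lower on the AtmsKO array, and 0 of 16 higher and 2 lower on the Atmp38dKO array against WT. Against AtmsKO, 1 of 16 was higher and 1 lower. Medians were -0.01, -0.03 and -0.03. Several of these ligands are known as products of stromal and endothelial cells, and their signals here come from RNA of the sorted fraction. Cxcl12 gave 21.6 on the WT, 25.2 on the AtmsKO and 13.9 on the Atmp38dKO array, and differed by -1.15 between the mutant arrays. Vcam1 gave 23.9, 16.4 and 10.1. Vcam1 fell by 1.46 on the Atmp38dKO array against WT, but its other probe read 0.03. Lama5, a laminin chain bound by Itga6, gave 98.1, 38.2 and 69.2, and fell by 1.28 on the AtmsKO array. E-selectin (Sele) and Has3, a hyaluronan synthase, were not well above background on any array.

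**Figure D5:**
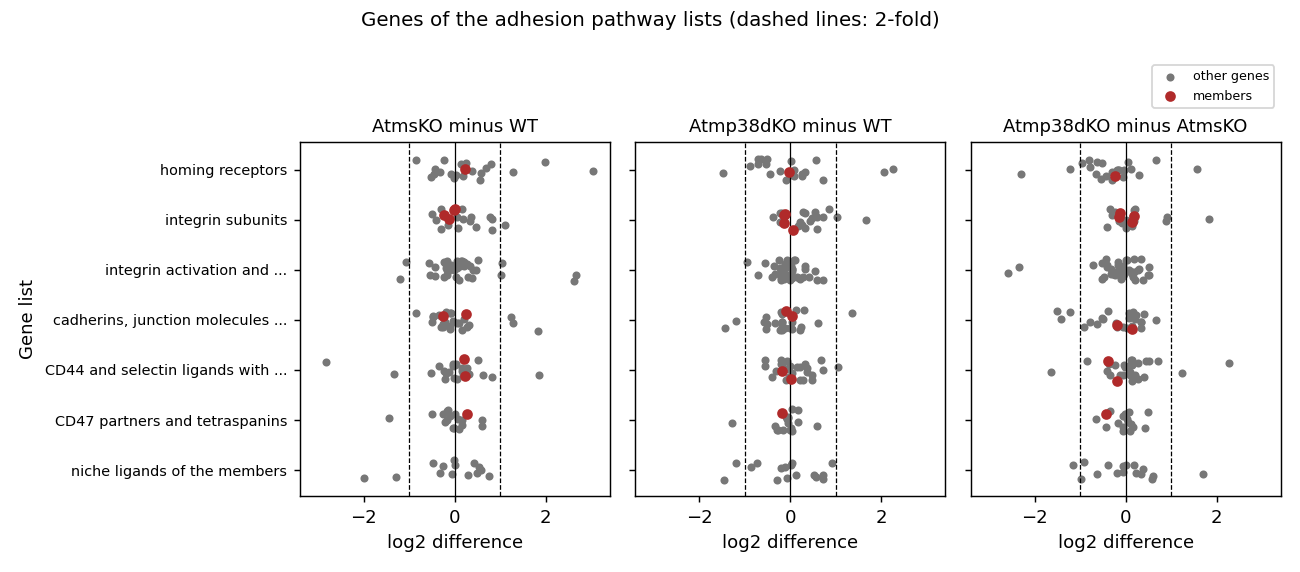
log2 difference between arrays (horizontal axis) of each gene considered in the 7 lists (rows, some names shortened), at the brightest probe, with members in red and other genes in grey. Points are spread vertically only to separate them. All members lie between the dashed 2-fold lines, and the farthest other points are S1pr3 at 3.03 and Fut4 at -2.83 in the first panel.

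Markers of other blood and marrow cells were read beside these lists. Of 8 erythroid markers, 7 were well above background on the WT and 8 on each mutant array, and their summed signal relative to the 75th percentile was 4.14 on the WT, 6.32 on the AtmsKO and 7.43 on the Atmp38dKO array. The same 2 of these 8 genes rose past 2-fold against WT on both mutant arrays, and 0 fell past it. Of 8 megakaryocyte markers, which include the integrin gene Itgb3, all were detected, with sums of 19.3, 35.7 and 23.8. Compared with WT, 1 of these 8 genes (Pf4) rose past 2-fold on the AtmsKO array and 1 (Gp5) fell past it on the Atmp38dKO array, and a sum can be carried by few genes. For 12 granulocyte and macrophage markers the sums were 383, 395 and 345, set mainly by 1 probe of Itgam, a lineage antigen of the sort, with 33133.5, 32383.3 and 33894.9, whereas its other probe gave 35.9, 43.9 and 53.8. Of 8 endothelial markers, 7, 7 and 6 were detected with sums of 9.73, 11.1 and 8.57, and Cdh5, the defining cadherin of endothelium, was not well above background on any array. Of 7 endothelial markers considered, Kdr and Vwf were at least 2-fold higher on the AtmsKO than on the WT array and 0 were lower. On the Atmp38dKO array Kdr was at least 2-fold higher and Plvap at least 2-fold lower than on the WT array. Both were at least 2-fold lower there than on the AtmsKO array. For 8 stromal markers, all detected, sums were 48.6, 48.5 and 45.1. For 8 B cell markers, of which 7, 6 and 8 were detected, sums were 6.46, 6.16 and 6.29. For 8 T and NK cell markers, with 6, 6 and 7 detected, they were 6.06, 6.11 and 8.41, and for 8 mast cell and basophil markers, with 4, 4 and 6 detected, 2.9, 3.0 and 3.43. The part of these cells in the differences above was not tested.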

How the data were processed

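One Agilent 1-colour array per genotype was read from the deposited scanner output. Per the file headers the authors' contractor used Agilent Feature Extraction 11.5.1.1, which gave processed intensity (background-subtracted, not scaled between arrays) with mm9 probe positions. All 3 arrays lay on 1 slide and in 1 scan. The authors also deposited log2 values, which matched log2 intensity minus the array's 75th percentile within 0.02 for 99.6% to 99.8% of probes (column medians -2.18, -2.22 and -2.17). Here control and outlier spots were dropped, spots of a probe averaged, and log2 intensity scaled by the 75th percentile of 56605 probes. A probe with over 50% of spots well above background was counted as such; dimmer values were raised to the lowest such signal of the array. RefSeq (GRCm38.p6, names only) named 32994 probes, 17 of the 26 member probes among them with the same symbol as in the files, and the other 9 kept the file's symbol. Each gene was read at its brightest probe. Called genes were at least 2-fold apart and well above background on the brighter array. The position of probes within exons or introns of mm9 was not analysed here.

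The named genes were all members at all probes, Atm, Mapk14, the sort markers and, per list and comparison, up to 2 of the largest rises and 2 of the largest falls past 2-fold and measured on both arrays. Sele and Has3 were named for their detection, and Itgam, Cdh5, Kdr, Vwf, Plvap, Pf4 and Gp5 after their values were seen. One gene that qualified is not reported here. The members and lists were chosen with earlier results of these data known, and signal ranges of 50, 200 and 1000 were set after values were seen. Functions were tested on simulated data. Python 3.11.15, pandas 2.3.3, numpy 2.4.6 and limma 3.58.1 in R 4.3.3 (normexp alternative) were used. Intensity holds no counts, so the number of arrays limits the precision.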

Additional observations from a re-analysis of the deposited data

How the results depend on the processing

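With 10 members, 59 of the 60 counts of members past 2-fold under the alternatives were 0, as in the values reported. Not all of these counts were tests. The members' brightest probes were all well above background and had no outlier flag. Leaving dim values as measured, keeping outlier spots or requiring signal on both arrays therefore left the member values unchanged. The authors' deposited values are scaled in the same way and nearly repeat the values reported. Reading the next brightest probe left 9 members, of which the 3 with 1 probe (Itga5, Selplg and Jam3) were read at it again. This setting gave 1 higher for Atmp38dKO against WT (Itga4, 1.61). It moved the medians to -0.03 for AtmsKO against WT, 0.13 for Atmp38dKO against WT and 0.14 for Atmp38dKO against AtmsKO. The other 24 of 27 medians moved by less than 0.08, the spread that spots alone give a difference. These include medians under the settings that could not move a member or that nearly repeat the values reported. Other scalings, background corrections, filters and a 1.5-fold threshold gave 0 members in each direction. Under the alternatives that kept the brightest probe, member differences stayed between -0.26 and 0.27, between -0.20 and 0.17 and between -0.46 and 0.29 in the 3 comparisons. The sign held under every alternative for 13 of 30 member differences. Atm for AtmsKO against WT was -0.81 with normexp background correction in place of -1.79 at the brightest probe. That correction adds an offset of 50 intensity units, which narrows differences at dim probes. Quantile normalization and the other scalings shifted the median of all genes by at most 0.03. No paired analysis was possible because the groups hold 1 array apiece, and for the same reason no replicate could be left out. Probes near background, among them the variable-region probe of Cd44 and 3 of the Itga4 probes, are limited by signal over background.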
